A study of Mus musculus with 6 samples.

Results

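Chemokines are small secreted proteins that attract cells carrying their receptors, and the endothelial chemokine Cxcl12 was the subject of the study from which these libraries come. The 10 genes described here are other chemokine ligands of the same tables, Ccl2, Ccl3, Ccl4, Ccl6, Ccl7, Ccl9, Cxcl10, Cxcl14, Cxcl16 and Cx3cl1, out of 31053 genes counted. They are a fixed list of names, chosen with earlier results of these data known, with no threshold on their values. Each was read in 4 cell classes, set by marker transcripts: endothelial (at least 2 unique molecular identifiers, UMIs, of Pecam1 and Cdh5), mesenchymal (at least 5 of Col1a1 and Col3a1), epithelial (at least 1 of Epcam) and immune (at least 1 of Ptprc, which encodes CD45). Cells that met more than 1 rule were set aside.

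CC chemokines such as CCL2 act mainly on monocytes, macrophages and other leukocytes through G protein-coupled receptors of the CCR family, and CXC chemokines act through CXCR receptors. CXCL16 and CX3CL1 are unusual in being made as membrane-anchored proteins, which the proteases ADAM10 and ADAM17 can release from the cell. In the lung, macrophages are a well known source of CC chemokines, and the decoy receptor ACKR2 takes up and degrades many of them.

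Single-cell RNA was counted in 6 mouse lung libraries, 1 per condition. The 4 sorted libraries came from Cxcl12DsRed/+ lungs, in which the reporter DsRed replaces 1 copy of Cxcl12, 1 each from E13.5, from E15.5, from E18.5 and from P8. Each was a mixture of 2 to 4 lungs sorted for DsRed and CD31 and against EpCAM and CD45. The methods also mention the collection of CD31-negative mesenchymal-enriched cells that carried the reporter. The other 2 were whole E18.5 lungs, labelled Cxcl12DsRed/DsRed (null for Cxcl12) and Cxcl12DsRed/+ (control). All animals thus carried at least 1 DsRed allele, and no wild-type library was analysed. With 1 library per condition no difference could be tested between animals, so that all values below compare libraries. Levels are given as counts per 1e+06 UMIs of the class (CPM) with exact 95% Poisson intervals in brackets, shares with exact binomial intervals where given, and ratios with exact conditional intervals. These intervals cover counting error only. As the 3′ protocol counts molecules, levels do not depend on transcript length.

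The libraries held 63746333 to 117522172 UMIs and 7448 to 12726 cells after filtering. The targeted gene went against the labels of the whole lungs. Cxcl12 stood at 743 to 1231 CPM in the endothelial cells of the sorted libraries, at 575 CPM (565–584) in those of the library labelled null and at 5.33 CPM (4.18–6.70) in those of the library labelled control, and the deposited matrices carry the opposite genotypes in their names. Labels were kept as given, and the 2 libraries are called the library labelled null and the library labelled control throughout. They also differed in Xist (758 and 0.119 CPM over all cells, labelled null first), in the Y-linked gene Ddx3y (35.4 and 74.3 CPM), so that the library labelled null held transcripts of both sexes, and in the share of UMIs that the authors' background correction with SoupX removed (18.5% and 40.0%). Genotype, the mix of sexes and background therefore cannot be told apart between them. They shared 140 cell barcodes, 16 of them among kept cells, against 20 to 54 for the other pairs of libraries.

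The class rules found 8209 to 9021 endothelial cells in the sorted libraries from E15.5 on and 173 at E13.5, where 11135 cells were mesenchymal. Sorted mesenchymal cells numbered 2049 at E15.5, but only 278 at E18.5 and 68 at P8. Immune cells were scarce in the sorted libraries (1, 2, 11 and 13 cells from E13.5 to P8), as CD45-positive cells had been sorted out, so that immune levels come from the whole lungs only, with 609 cells in the library labelled null and 529 in that labelled control. A sum over 6 immune markers that the rule did not use (Laptm5, Tyrobp, Fcer1g, Coro1a, Cd53 and Cd52, all detected) reached 6818 and 7531 CPM in the immune class of these libraries and 16.0 to 52.5 CPM in their other 3 classes. The immune rule needs 1 UMI, and 53 of the 609 and 37 of the 529 class cells met it with exactly 1. Before cells that met another rule too were set aside, 958 and 856 kept cells met the immune rule, labelled null first. The epithelial rule was met by 620 and 803 kept cells, of which 405 and 566 stayed in the class.

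Of the 10 chemokines, 8 were highest in the immune class of both whole lungs, and 6 of these, Ccl2, Ccl3, Ccl4, Ccl6, Ccl7 and Ccl9, formed a group in which the immune class stood well above every other class. The exceptions were Cxcl14, which was highest in mesenchymal cells, and Cx3cl1, which was low everywhere and highest by value in endothelial cells. The heat map of levels shows both patterns. The count of 8 describes the listed genes only, as the share of all genes highest in immune cells is not given.

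**Figure D1:**
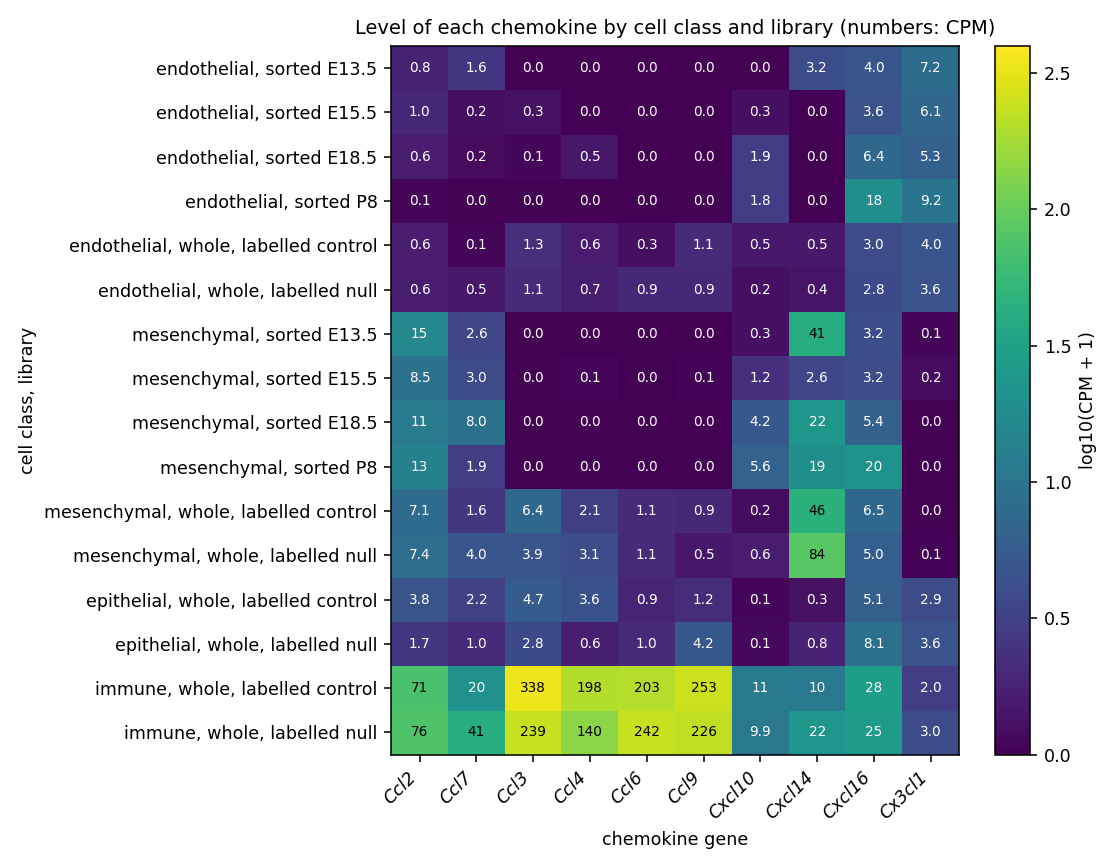
Level of each chemokine (columns) in each class and library of at least 50 cells (rows). Colour gives log10(CPM + 1) and the printed number the CPM; the 6 CC chemokines are brightest in the 2 immune rows, Ccl2 and Cxcl14 are also seen in mesenchymal rows, and Cxcl16 and Cx3cl1 are spread thinly over several classes.

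Of the genes, 7 lie on chromosome 11 (GRCm38), in 3 neighbouring pairs plus Cxcl16. Ccl2 (ENSMUSG00000035385, plus strand, 82035571 to 82037453) and Ccl7 (ENSMUSG00000035373, plus strand, 82045712 to 82047525) are 8258 bases apart, Ccl9 and Ccl6 9245 bases apart on the minus strand, and Ccl3 and Ccl4 13228 bases apart on opposite strands. None of the 10 shared a run of 60 bases in its last 300 transcript bases with another gene, so that reads of these neighbours can be told apart by sequence. RefSeq promoters of 300 bases (250 before and 50 after the transcription start, GRCm38.p6) were at hand for 6 of the 10 genes, namely Ccl3, Ccl6, Ccl9, Cxcl10, Cxcl14 and Cx3cl1.

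The promoters of Ccl6 (minus strand, chr11:83593038-83593337) and Ccl9 (minus strand, chr11:83578587-83578886) are shown because only this neighbouring pair had both promoters at hand. Of the 3 neighbouring pairs, this one also had the closest levels in the immune class. No other pair of promoters was searched for shared runs. Capitals mark the 4 exact runs of at least 10 bases that these promoters share, of 12, 13, 10 and 11 bases. The first 2 runs overlap in Ccl9.
Ccl6: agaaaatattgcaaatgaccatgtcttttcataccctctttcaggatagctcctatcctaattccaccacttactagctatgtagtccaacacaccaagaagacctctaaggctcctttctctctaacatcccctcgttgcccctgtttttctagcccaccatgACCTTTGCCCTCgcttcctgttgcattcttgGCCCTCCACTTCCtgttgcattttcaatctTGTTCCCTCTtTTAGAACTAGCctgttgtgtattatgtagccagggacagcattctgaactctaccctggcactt
Ccl9: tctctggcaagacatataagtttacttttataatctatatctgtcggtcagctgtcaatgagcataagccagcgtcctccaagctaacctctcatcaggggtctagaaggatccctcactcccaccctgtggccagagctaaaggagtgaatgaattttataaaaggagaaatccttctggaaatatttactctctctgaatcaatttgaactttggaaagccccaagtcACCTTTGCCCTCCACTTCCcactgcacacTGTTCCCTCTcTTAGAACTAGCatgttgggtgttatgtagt

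The runs begin between bases 165 and 237 of the Ccl6 window and between bases 231 and 271 of the Ccl9 window, counted from 1 at the 5′ end. The Ccl9 window also held 3 matches to the TATA motif TATAAA, 2 of them overlapping on opposite strands, whereas the Ccl6 window held none. On either strand, TATAAA was found in 13.6% of 32851 promoters of this length.

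Cxcl10 encodes a chemokine known as an interferon-induced attractant of CXCR3-bearing lymphocytes. Its promoter (minus strand, chr5:92348840-92349139) is shown because interferon response genes were measured beside it. Capitals mark, in this order, the match to the interferon-stimulated response element (the letters GAAA on both sides of any 2 bases) and the match to the NF-kB motif GGGANTTCC.
Cxcl10: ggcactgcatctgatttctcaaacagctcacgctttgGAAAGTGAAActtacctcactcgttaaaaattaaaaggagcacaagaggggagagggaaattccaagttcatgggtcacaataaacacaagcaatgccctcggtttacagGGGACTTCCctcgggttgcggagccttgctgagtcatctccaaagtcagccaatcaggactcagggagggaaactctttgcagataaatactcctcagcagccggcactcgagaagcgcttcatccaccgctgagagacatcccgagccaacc

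Over all promoters, matches to the response element were found in 3.44% and to GGGANTTCC in 1.68%, both strands counted. The Cxcl14 window held 1 match to the former (GAAACAGAAA). Only the motif letters given were searched, so longer or other forms of these motifs are neither marked nor counted. All of these are matches of letters and no measure of binding.

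Ccl2 and Ccl7, the monocyte attractants MCP-1 and MCP-3, were held by the fewest immune cells among the 6 CC chemokines. In the immune class Ccl2 measured 75.9 CPM (70.5–81.6) in the library labelled null and 70.6 CPM (65.0–76.6) in that labelled control, and Ccl7 measured 41.0 CPM (37.1–45.3) and 19.8 CPM (16.9–23.2). The 10 cells with the most UMIs held 57.8% and 45.2% of the Ccl2 UMIs and 64.8% and 81.4% of the Ccl7 UMIs. Few immune cells thus carried most of the Ccl7 transcripts in both libraries and most of the Ccl2 transcripts in the library labelled null. Once cells were thinned to 2000 UMIs each, 5.45% and 6.99% of immune cells retained a Ccl2 UMI.

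Ccl3 and Ccl4 encode the closely related macrophage inflammatory proteins MIP-1α and MIP-1β, which attract monocytes and other leukocytes. Ccl3 was the most abundant of the 10 in the immune class of the library labelled control, at 338 CPM (325–350), and measured 239 CPM (229–249) in that labelled null. Ccl4 measured 198 CPM (189–208) and 140 CPM (133–148) in the same order. Ccl6 and Ccl9, ligands of CCR1 found in rodents, were at similar levels and more widely spread. Ccl6 measured 203 CPM (194–214) in the library labelled control and 242 CPM (232–252) in that labelled null, and Ccl9 measured 253 CPM (243–265) and 226 CPM (216–236). In the library labelled null the intervals of Ccl3, Ccl6 and Ccl9 overlapped, so that counting does not order these 3.

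Thinned to 2000 UMIs, 22.5% and 30.2% of immune cells had a Ccl3 UMI, 29.9% and 30.4% a Ccl6 UMI and 29.8% and 35.2% a Ccl9 UMI, labelled null first. The matching shares in endothelial cells were 0.125% to 0.197% for Ccl3, 0.0623% to 0.197% for Ccl6 and 0.236% to 0.436% for Ccl9. Before thinning, median depths there were 8336 and 7427 UMIs, against 14876 and 14722 in immune cells. The immune shares are far above the endothelial ones. In contrast to Ccl2, the 10 leading cells held only 9.65% and 17.1% of the immune Ccl6 UMIs and 8.67% and 11.7% of those of Ccl9.

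To see which immune cells held the 6 CC chemokines, the class was cut by UMIs of further genes. Almost all immune cells fell into a set with complement C1q transcripts (at least 5 UMIs of C1qa, C1qb and C1qc), markers of tissue macrophages, or a set with at least 3 UMIs of Ear2, an eosinophil-associated ribonuclease gene of myeloid cells. This division was chosen after the values had been seen. In the library labelled control 74 cells were in the first set only, 416 in the second only, 10 in both and 29 in neither, and in that labelled null the numbers were 89, 463, 15 and 42. Median UMIs per cell were close between the 2 sets (13783.5 and 14870.5 labelled control, 14035 and 15151 labelled null).

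Ccl2 and Ccl7 were largely limited to the C1q cells. In the library labelled control Ccl2 measured 451 CPM (411–495) in the C1q cells and 10.5 CPM (8.13–13.3) in the Ear2 cells, and in that labelled null 507 CPM (468–547) and 7.74 CPM (5.88–10.0). Ccl7 measured 153 CPM (130–179) against 0.616 CPM (0.168–1.58), and 298 CPM (269–329) against 0.267 CPM (0.0323–0.964). The intervals are far apart in both libraries. All cells with C1q transcripts, Ear2-positive ones included, held 90.8% and 85.0% of the immune Ccl2 UMIs and 98.5% and 97.5% of those of Ccl7, labelled null first.

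Ccl3 and Ccl4 were higher in the C1q cells but present in both sets. Ccl3 measured 921 CPM (864–982) in the C1q cells and 246 CPM (234–258) in the Ear2 cells of the library labelled control, and 660 CPM (616–706) and 147 CPM (139–156) in that labelled null. Ccl4 measured 794 CPM (740–850) against 115 CPM (107–123), and 430 CPM (394–467) against 78.9 CPM (72.7–85.5). Both genes kept this order in both libraries.

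Ccl6 and Ccl9 did not follow this order. Ccl9 was higher in the Ear2 cells, at 270 CPM (257–283) against 168 CPM (144–195) labelled control and at 239 CPM (228–251) against 110 CPM (93.1–130) labelled null. Ccl6 was higher in the Ear2 cells of the library labelled null (263 CPM, 251–275, against 100.4 CPM, 83.8–119) and higher by value in the C1q cells of that labelled control (274 CPM, 243–308, against 199 CPM, 188–210). The latter order rested on 1 C1q cell, which held 135 of the 1651 Ccl6 UMIs of this class. Without it the C1q cells measured 145 CPM (123–171), below the Ear2 cells.

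Cxcl16, which encodes the membrane-anchored ligand of CXCR6, was the remaining gene with a high level in the C1q cells. It measured 145 CPM (123–171) labelled control and 146 CPM (125–168) labelled null there, against 9.54 CPM (7.32–12.2) and 4.67 CPM (3.25–6.50) in the Ear2 cells. Cxcl10 was low in both sets and higher in the C1q cells, at 31.2 CPM (21.3–44.0) against 7.85 CPM (5.85–10.3) and 42.8 CPM (32.2–55.7) against 5.07 CPM (3.59–6.96). Without the 1 Ear2 cell with the most Cxcl10 UMIs in each library, the Ear2 levels were 3.70 CPM (2.37–5.51) and 2.27 CPM (1.32–3.64). Cxcl14, which encodes a chemokine of epithelia and stroma, went the other way, with 0 and 1 UMI in the C1q cells and 12.8 CPM (10.2–15.8) and 27.0 CPM (23.4–30.9) in the Ear2 cells. After SoupX adjustment the Ear2 cells had 0.633 and 24.8 CPM of Cxcl14, so that in the library labelled control the order rests on the unadjusted counts.

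**Figure D2:**
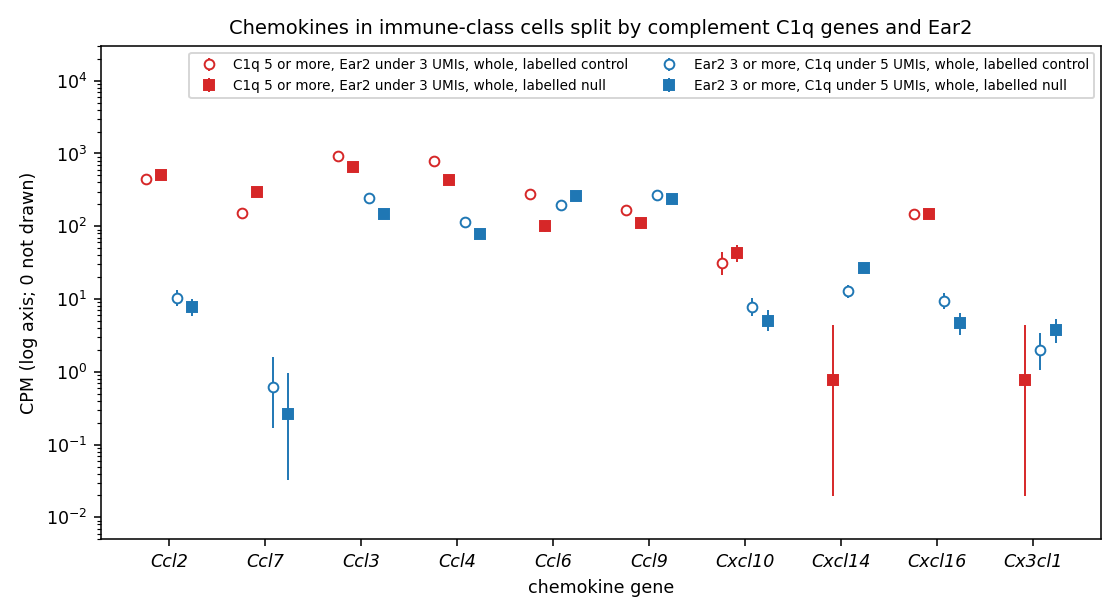
Level (CPM, log axis) of each chemokine in immune-class cells with C1q but not Ear2 transcripts (red) or with Ear2 but not C1q transcripts (blue), in the library labelled control (open circles) and that labelled null (squares), with 95% Poisson intervals. Red symbols lie far above blue ones for Ccl2, Ccl7 and Cxcl16, whereas those for Ccl6 and Ccl9 lie close together; levels of 0 are not drawn.

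Pairs of chemokines were also examined within cells, at 2000 UMIs each, beginning with the neighbours on the chromosome. A Ccl4 UMI was found in 29.4% of immune cells with a Ccl3 UMI and 7.46% of those without in the library labelled null, and in 30.6% and 9.21% in that labelled control. Ccl7 was found in 30.3% (15.6–48.7) of cells with a Ccl2 UMI and 1.57% (0.722–2.97) of those without labelled null. Labelled control, the shares were 8.11% (1.70–21.9, 3 of 37 cells) and 1.42% (0.574–2.91), whose intervals overlap. Ccl9 was found in 33.7% of cells with a Ccl6 UMI and 28.1% of those without, and in 40.4% and 32.9%. The difference was thus small for the last of these pairs. Beyond neighbours, Ccl3 was found in 54.5% of cells with a Ccl2 UMI and 20.6% of those without, and in 54.1% and 28.5%. Ccl6, by contrast, was found in 30.1% of cells with Ccl3 and 29.9% of those without, and in 32.5% and 29.5%. Over the whole immune class, Ccl3 thus went with Ccl4 and Ccl2 within cells, and the shares for Ccl6 differed little. The pairs were not counted within the C1q or the Ear2 cells, so the part of that division was not tested.

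Immune cells with these chemokines also differed in a list of 12 genes known to respond to dissociation and inflammatory stimuli (Fos, Jun, Atf3, Nfkbia and others). The summed level of the list was 11594 CPM in immune cells with a Ccl2 UMI and 6598 CPM in those without in the library labelled null, and 10116 and 6298 CPM in that labelled control. For Ccl3 the values were 8472 and 5863 CPM, and 7600 and 5788 CPM. For Ccl6 the order was the opposite, 6579 CPM with and 11764 CPM without in the library labelled null, and 6722 and 8284 CPM in that labelled control. All cells with C1q transcripts held 90.8% and 85.0% of the immune Ccl2 UMIs, labelled null first, and the list was not compared within C1q or Ear2 cells. Median depths with and without a Ccl6 UMI were 15308 and 12817.5 UMIs labelled null, and 15036 and 13586.5 labelled control. The parts of cell set and depth in these sums, and of dissociation in the chemokine levels, were not tested.

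Outside the immune class Ccl3, Ccl4, Ccl6 and Ccl9 were rare. Ccl3 measured 6.42 CPM (5.52–7.42) and 3.95 CPM (3.35–4.61) in mesenchymal cells of the whole lungs (labelled control first), where the 10 leading cells held 80.9% and 65.0% of its UMIs. In endothelial cells Ccl2, Ccl3, Ccl4, Ccl6, Ccl7 and Ccl9 each measured at most 1.31 CPM in the whole lungs and 1.60 CPM in the sorted libraries. No Ccl6 UMI was found in the 11135 mesenchymal cells of E13.5 or in the 8921 endothelial cells of E15.5, where 3 UMIs would be 0.0331 and 0.0342 CPM. Cells that met more than 1 class rule held Ccl3 at 94.4 and 128 CPM (labelled null first), and those that met none at 75.4 and 54.0 CPM.

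Cxcl14 had the highest mesenchymal level of the 10 in the whole lungs and at E13.5 and E18.5. In the whole lungs it measured 46.0 CPM (43.5–48.5) in mesenchymal cells of the library labelled control and 83.9 CPM (81.0–86.8) in those of the library labelled null, against 0.323 to 0.769 CPM in endothelial and epithelial cells. In sorted mesenchymal cells E13.5 had 40.6 CPM (39.3–42.0), E15.5 had 2.62 CPM (1.90–3.51), E18.5 had 21.8 CPM (16.5–28.2) and P8 had 18.6 CPM (8.92–34.2). The E15.5 library stood apart on the low side, and the intervals of E18.5 and P8 overlapped. Thinned shares of mesenchymal cells with a UMI were 6.30% at E13.5 and 0.590% at E15.5, where the 10 leading cells held 81.8% of 44 UMIs, and 10.1% and 5.46% in the whole lungs (labelled null first) against 0.118% and 0.0623% of endothelial cells.

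Cxcl14 was concentrated in mesenchymal cells with Tcf21, a transcription factor gene of lung fibroblasts. In the whole lungs, cells with at least 2 Tcf21 UMIs held 98.3% and 96.9% of the mesenchymal Cxcl14 UMIs (labelled null first) and were 57.1% and 49.9% of the class. Their level was 133 CPM (128–137) and 82.8 CPM (78.3–87.5), against 3.78 CPM (2.86–4.90) and 3.11 CPM (2.23–4.22) in the other mesenchymal cells. At E13.5 the contrast was smaller, 73.3 CPM (69.4–77.2) against 32.0 CPM (30.8–33.4), and the Tcf21 cells held 37.6% of the Cxcl14 UMIs. They were 17.9% (17.2–18.6) of the sorted mesenchymal cells at E13.5 and 4.15% (3.33–5.10) at E15.5, and their share was 40.6% in the E18.5 library and 42.6% in the P8 library.

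The low level at E15.5 went with this change in composition and was also seen within 6 of the 7 mesenchymal subsets compared. Cxcl14 in Tcf21 cells measured 15.9 CPM at E15.5, from 12 UMIs, a ratio to E13.5 of 0.216 (0.112–0.379). In cells with pericyte genes (at least 3 UMIs of Cspg4, Kcnj8 and Cox4i2) it was 36.0 and 1.88 CPM, in cells with the fibroblast genes Serpinf1 and Col14a1 21.3 and 1.56 CPM, and in cells with the smooth muscle genes Myh11 and Cnn1 12.9 and 0.245 CPM. Cells with Pdgfra had 43.5 and 1.79 CPM and cells with the cycling genes Mki67 and Top2a 45.5 and 3.58 CPM. The exception was the cells with the mesothelial genes Wt1, Msln and Upk3b, at 7.56 CPM (3.62–13.9) and 8.56 CPM (1.04–30.9), of which E15.5 had only 24 with 2 UMIs. The part of the sort in this difference was not tested.

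Ccl2 in the mesenchymal class was highest in another subset than Cxcl14 at E13.5, although the cells with the 2 genes were not separate. After thinning to 2000 UMIs, Cxcl14 was found in 5.36% (2.80–9.17) of E13.5 mesenchymal cells with a Ccl2 UMI and in 6.32% (5.87–6.79) of those without. In sorted mesenchymal cells E13.5 had 14.9 CPM (14.1–15.7), E15.5 had 8.50 CPM (7.17–10.0), E18.5 had 11.1 CPM (7.42–15.9) and P8 had 13.02 CPM (5.23–26.8), and the level in the whole lungs was 7.05 CPM (6.11–8.10) labelled control and 7.44 CPM (6.62–8.34) labelled null. At E13.5 cells with the pericyte genes measured 56.2 CPM (52.3–60.3) against 7.40 CPM (6.81–8.04) in the rest, a ratio of 7.59 (6.80–8.47), and held 57.9% of the Ccl2 UMIs of the class. Of these 1251 cells 348 (27.8%) had a Ccl2 UMI, so that the level did not rest on a few cells. The same subset was higher than the rest at E15.5 (24.2 against 4.84 CPM) and in the whole lungs (21.7 against 4.09 CPM labelled control, 26.9 against 3.69 CPM labelled null), although there the 10 leading cells held 93.5% of its Ccl2 UMIs at E15.5 and 72.1% and 69.4% in the whole lungs. At E18.5 it was not separated from the rest (12.2 CPM, 6.11–21.9, against 10.5 CPM, 6.21–16.6).

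**Figure D3:**
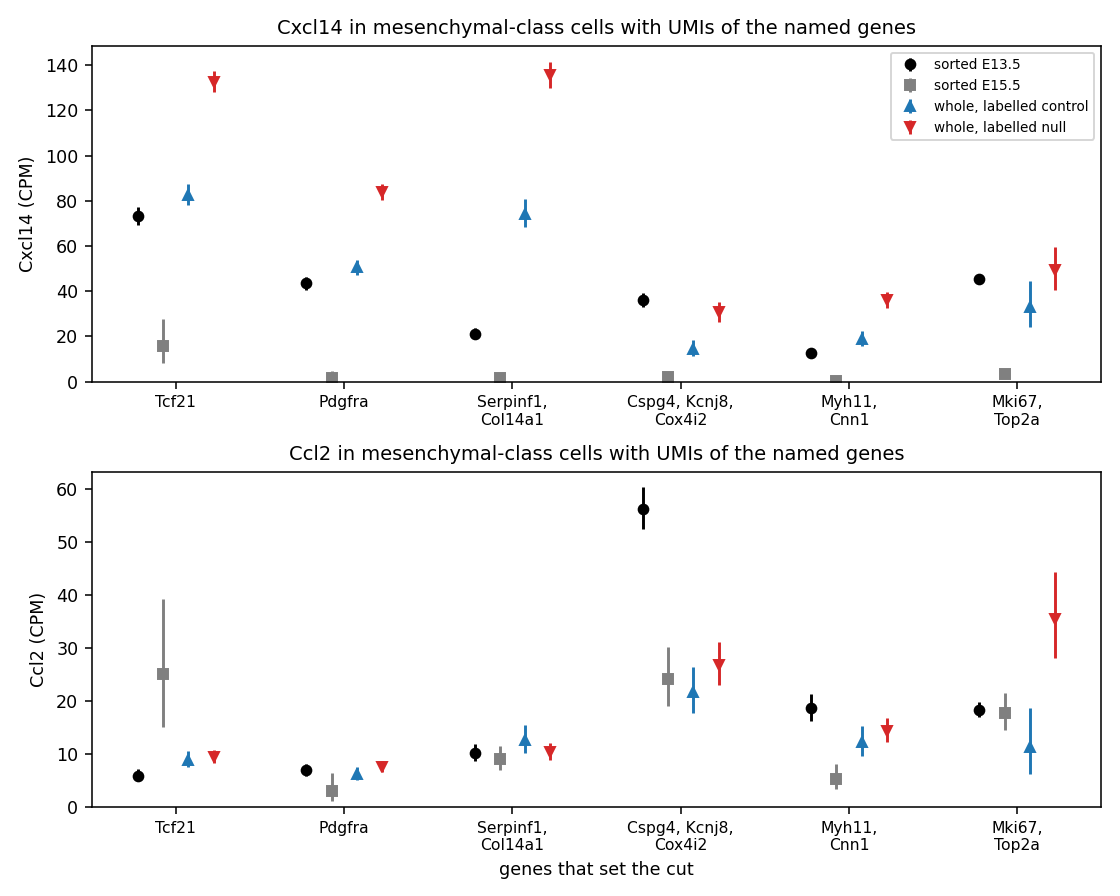
Level (CPM, with 95% Poisson intervals) of Cxcl14 (upper panel) and Ccl2 (lower panel) in mesenchymal-class cells cut by UMIs of the genes on the horizontal axis, at E13.5, at E15.5 and in the whole lungs. Cxcl14 is highest in Tcf21 and in Serpinf1 and Col14a1 cells of the library labelled null, and Ccl2 is highest in the pericyte-gene cells of E13.5; a cell can be in more than 1 subset.

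The main chemokines of endothelial cells among the 10 were Cxcl16 and Cx3cl1, the membrane-anchored pair. Cxcl16 measured 4.01 CPM (1.30–9.35) in the E13.5 library, 3.61 CPM (3.22–4.03) in the E15.5 library, 6.404 CPM (5.77–7.09) in the E18.5 library and 17.8 CPM (16.8–18.9) in the P8 library. Cx3cl1, the ligand of CX3CR1, measured 7.21 CPM (3.30–13.7), 6.14 CPM (5.63–6.68), 5.26 CPM (4.69–5.88) and 9.21 CPM (8.46–10.0) in the same order. Cxcl16 was highest at P8, and Cx3cl1 was higher at P8 than at E15.5 and E18.5, while its E13.5 interval includes that of P8. The E13.5 values rest on 5 and 9 UMIs and their intervals include those of E15.5, and the intervals of Cx3cl1 at E15.5 and E18.5 overlap.

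In the whole lungs, endothelial Cxcl16 measured 2.99 CPM (2.15–4.06) labelled control and 2.85 CPM (2.23–3.59) labelled null and Cx3cl1 4.01 CPM (3.02–5.22) and 3.60 CPM (2.90–4.42). Endothelial Cxcl16 was thus lower in the whole E18.5 lungs than in the sorted E18.5 cells. After SoupX adjustment the whole-lung values of Cxcl16 were 0.00 and 1.16 CPM, and those of Cx3cl1 5.80 and 3.97 CPM. Epithelial cells held Cxcl16 at 5.06 CPM (3.72–6.72) and 8.07 CPM (6.202–10.3), and Cx3cl1 at 2.90 CPM (1.91–4.23) and 3.59 CPM (2.38–5.18). Cx3cl1 intervals of endothelial and epithelial cells overlapped in both libraries, and mesenchymal cells had 0 and 2 Cx3cl1 UMIs. Epithelial cells with at least 5 UMIs of the secretory genes Scgb3a2 and Cyp2f2 held Cx3cl1 at 6.29 CPM (4.03–9.36) and 5.95 CPM (3.63–9.18). The other epithelial cells had 0.547 and 1.80 CPM. By value the secretory-gene cells were thus above the endothelial class, with overlapping intervals in both libraries. Mesenchymal Cxcl16 measured 6.49 CPM (5.59–7.50) labelled control and 4.98 CPM (4.31–5.72) labelled null, above the endothelial level in both whole lungs. It was 3.24 CPM (2.88–3.63) at E13.5 and 3.15 CPM (2.36–4.12) at E15.5, where its intervals overlapped those of the endothelial cells.

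Within the sorted endothelial cells, the spread of Cxcl16 over subsets differed between E15.5 and E18.5. At E15.5 it measured 4.38 CPM (3.89–4.92) in cells with the arterial gap junction genes Gja4 and Gja5 and 1.25 CPM (0.822–1.82) in the rest, and 0.805 CPM (0.521–1.19) in cells with Gpihbp1, a capillary gene of lipoprotein lipase transport. At E18.5 the arterial-gene cells measured 6.24 CPM (5.49–7.06) and the Gpihbp1 cells 6.04 CPM (5.20–6.98), and at P8 18.3 CPM (17.1–19.5) and 16.5 CPM (15.4–17.7). The Gpihbp1 cells thus showed 7.51-fold (4.93–11.9) more Cxcl16 at E18.5 than at E15.5, the arterial-gene cells 1.42-fold (1.20–1.69) more. These subsets overlap, as arterial-gene cells were 66.2% and Gpihbp1 cells 46.2% of the class at E18.5, and the Gpihbp1 share was 28.0% at E15.5. The part of this change in composition was not tested. Cx3cl1 at P8 was higher in cells with Car4, a carbonic anhydrase gene of the alveolar capillary, than in the rest (13.2 CPM, 11.6–14.8, against 7.22 CPM, 6.41–8.09).

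Cxcl10 in endothelial cells was rare, with 0 UMIs in the E13.5 library, 0.274 CPM (0.176–0.408) in the E15.5 library, 1.90 CPM (1.56–2.29) in the E18.5 library and 1.84 CPM (1.51–2.21) in the P8 library. At E18.5 only 23 of 9021 cells had a UMI and 10 of them held 88.3% of the 111 UMIs. A list of 8 interferon response genes (Ifit1, Ifit3, Isg15 and others) summed to 7.21, 7.03, 168 and 72.9 CPM in the same 4 libraries. At P8 the 48 cells with a Cxcl10 UMI had the list at 207 CPM (171–249), against 71.6 CPM (69.5–73.8) in the cells without, and at E18.5 the values were 204 CPM (153–265) and 167 CPM (164–171), whose intervals overlap. In immune cells they were 107 against 29.5 CPM labelled null and 171 against 37.1 CPM labelled control.

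**Figure D4:**
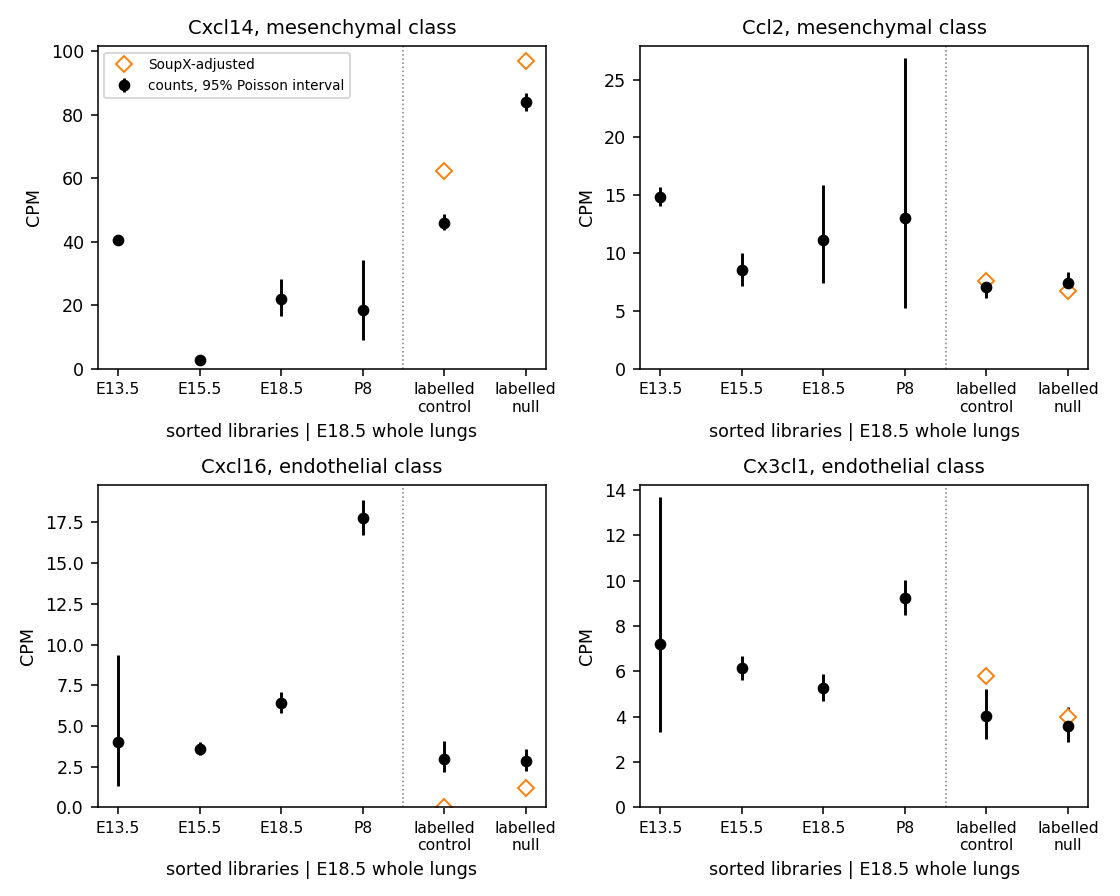
Level (CPM) of Cxcl14 and Ccl2 in mesenchymal-class cells and of Cxcl16 and Cx3cl1 in endothelial-class cells, in the 4 sorted libraries and, right of the dotted line, the 2 whole E18.5 lungs. Black points give counts with 95% Poisson intervals and orange diamonds the SoupX-adjusted values; Cxcl14 is lowest at E15.5 and Cxcl16 highest at P8.

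Neighbouring time points were then compared for all genes that reached 10 CPM in at least 1 of both libraries, with 0.5 CPM added, and a gene was called at a ratio of at least 2 in either direction. The folds and ratios printed here and for the whole lungs are those of the levels themselves, with nothing added. The counts below are descriptions of pairs of libraries, in which age and the mix of sexes differed together. From E13.5 to E15.5 in mesenchymal cells 11.2% of 8700 genes were called, and of the 10 chemokines 2 reached the minimum and 1 was called, Cxcl14, which was 15.5-fold (11.5–21.4) lower at E15.5 (-3.72 on the log2 scale with the added 0.5 CPM). Ccl2 was 1.75-fold (1.47–2.09) lower. The median gene moved by -0.12 on the log2 scale.

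In endothelial cells none of the 10 reached the minimum from E13.5 to E15.5, where 6.21% of 8304 genes were called, or from E15.5 to E18.5, where 13.8% of 8453 genes were called and the median gene moved by 0.18 on the log2 scale. From E18.5 to P8 8.31% of 8434 genes were called, and Cxcl16 alone of the 10 reached the minimum and was called, at 2.78-fold (2.47–3.13) higher. Below the minimum, Cx3cl1 was 1.75-fold (1.52–2.02) higher at P8 than at E18.5, and Cxcl16 1.78-fold (1.52–2.07) higher at E18.5 than at E15.5. The list of dissociation response genes summed to 940, 1484, 6388 and 13513 CPM in the endothelial cells from E13.5 to P8, and like Cxcl16 it was highest at P8. Its part in the Cxcl16 level was not tested.

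Comparison of the whole lungs addressed whether the chemokines differ between the libraries labelled null and control. In immune cells 1.53% of 7866 genes were called, and of the 10 chemokines 9 reached the minimum and 2 were called. Ccl7 was 2.07-fold (1.72–2.50) and Cxcl14 2.12-fold (1.63–2.77) higher in the library labelled null. Both are near the limit of 2, and Ccl7 rested on few cells. With SoupX-adjusted levels 1 of them was called (Cxcl14), and without the 5% of cells with the most UMIs neither was.

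The other immune chemokines differed less. Ccl3 and Ccl4 were lower in the library labelled null, at ratios of 0.708 (0.669–0.749) and 0.709 (0.659–0.763), and Ccl6 was higher, at 1.19 (1.12–1.27). Ccl9 had a ratio of 0.891 (0.839–0.947). Intervals for Ccl2 (1.07, 0.962–1.20), Cxcl10 (0.938, 0.693–1.27) and Cxcl16 (0.910, 0.755–1.10) included 1. SoupX adjustment gave Ccl3 at 482 CPM labelled control and 275 CPM labelled null, and Ccl2 at 93.7 and 83.7 CPM, which is the opposite order from the counts for Ccl2. The immune class also differed in composition. Cells with the neutrophil genes Csf3r and Retnlg were 7.39% (5.44–9.76) of it labelled null and 16.4% (13.4–19.9) labelled control. Those with the B cell genes Cd79a and Cd79b were 9.85% (7.60–12.5) and 15.3% (12.3–18.7). The part of composition in these ratios was not tested.

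Immune Cxcl14 depended most on the background correction. Counts were 10.2 CPM (8.15–12.7) labelled control and 21.7 CPM (18.8–24.8) labelled null, and SoupX-adjusted values 0.503 and 19.8 CPM, as the correction removed 96.9% of the immune Cxcl14 UMIs in the library labelled control. In endothelial cells of the same libraries the counts gave 0.511 CPM (0.205–1.05) and 0.396 CPM (0.190–0.727). The part of background RNA in the immune Cxcl14 counts was not tested.

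In mesenchymal cells 1.06% of 8608 genes were called between the whole lungs. Only Cxcl14 reached the minimum, at a ratio of 1.82 (1.71–1.95), short of 2. The ratio was 1.60 (1.502–1.71) within the Tcf21 cells, 1.83 (1.66–2.01) in the Serpinf1 and Col14a1 cells, 2.10 (1.59–2.80) in the pericyte-gene cells and 1.91 (1.55–2.37) in the smooth muscle-gene cells. Cxcl14 was thus higher labelled null in each of these subsets, which can share cells. In mesenchymal cells outside the Tcf21 subset, the intervals of its levels given above overlapped between the libraries. Tcf21 cells were 57.1% of the class labelled null and 49.9% labelled control, and the part of this share was not tested. SoupX-adjusted values were 62.2 and 96.8 CPM. Ccl7, under the minimum, was 2.48-fold (1.77–3.52) higher in the mesenchymal counts of the library labelled null, and lower there once SoupX-adjusted counts also set the classes.

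In endothelial cells 0.566% of 8305 genes and in epithelial cells 0.516% of 8333 genes were called, and none of the 10 chemokines reached the minimum in either class. Their levels there rest on 1 to 91 UMIs per library, which leaves wide counting intervals.

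**Figure D5:**
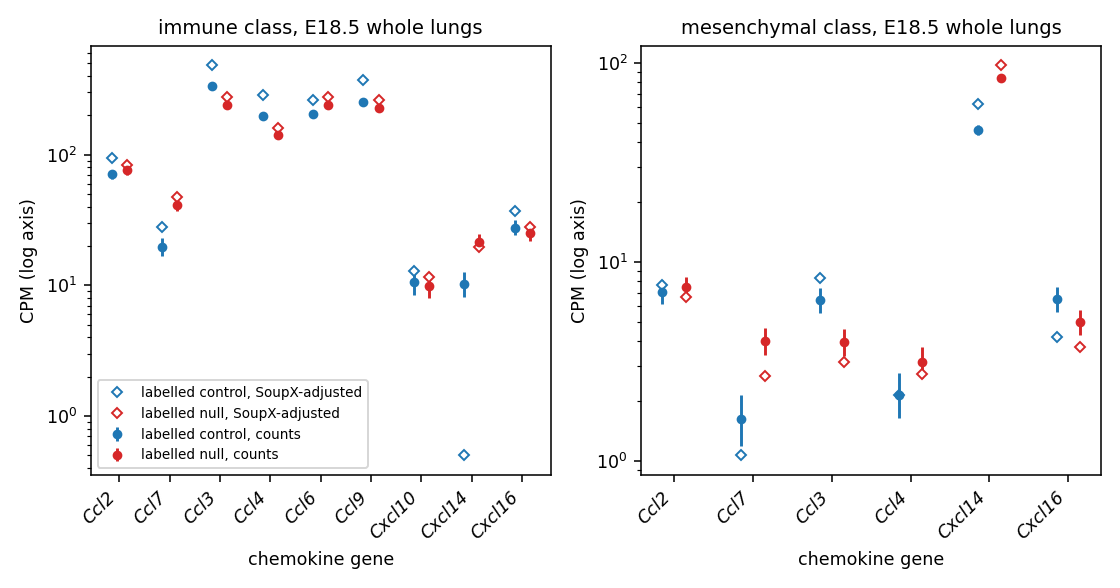
Level (CPM, log axis) of chemokines in immune-class (left) and mesenchymal-class (right) cells of the libraries labelled control (blue) and null (red), as counts with 95% Poisson intervals (filled) and SoupX-adjusted (open diamonds). Ccl7 and Cxcl14 are higher in the library labelled null in both classes, and the adjusted immune Cxcl14 of the library labelled control falls to 0.503 CPM.

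Receptors of these chemokines were mainly in the immune class. Of 8 receptors listed, 5 reached 20 CPM in some class. The CC receptors Ccr1 and Ccr2 measured 230 and 552 CPM in immune cells labelled null and 246 and 495 CPM in those labelled control, and Cx3cr1, the receptor of CX3CL1, 180 and 192 CPM. Cxcr6, the receptor of CXCL16, was barely detected, at no more than 3 UMIs in any class of any library. The decoy receptor Ackr2 was endothelial, with 0.802 and 1.42 CPM in the E13.5 and E15.5 libraries, 36.9 and 53.2 CPM in the E18.5 and P8 libraries and 35.1 and 33.4 CPM in the whole lungs (labelled control first). Between libraries, 1 receptor was called, Ackr2, higher at E18.5 than at E15.5 in endothelial cells. The sheddase genes Adam10 and Adam17 were found in all classes, at 73.7 to 98.0 CPM and 25.1 to 38.5 CPM in endothelial cells, and neither was called in any comparison.

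Of 25 other chemokine ligands in the table, 10 reached 20 CPM in some class. In the immune class these were Ccl12 (167 and 190 CPM, labelled control first), Ccl24 (58.7 and 60.7 CPM), Cxcl1, Cxcl2 (614 and 606 CPM) and Pf4 (317 and 514 CPM), and between the immune cells of the whole lungs 5 of the 25 reached the minimum and 0 were called, where 1.53% of all genes were. Cxcl2, a neutrophil attractant, was thus above every one of the 10 chemokines described here. In mesenchymal cells they were Ccl11 (17.9 to 160 CPM over the 6 libraries), Ccl27a, Cxcl1 and Cxcl13, known to recruit B cells, which had 236, 315, 207 and 5.58 CPM from E13.5 to P8. The P8 class held 68 cells, in which 3 UMIs would be 5.58 CPM, so that this last value rests on few UMIs. Cxcl15, a lung epithelial chemokine, reached 1298 and 1791 CPM in epithelial cells, and Ccl21a was found in endothelial cells. Between the whole lungs, Ccl21a in endothelial, Cxcl13 in mesenchymal and Cxcl1 in epithelial cells were called, each higher in the library labelled null. Over time, Pf4 was called higher at E15.5 than at E13.5 in mesenchymal cells, and in endothelial cells Ccl21a was called in all 3 steps (lower, higher, lower) and Cxcl1 was called higher at E18.5 than at E15.5.

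Likeness of pattern was described by Pearson's r of log2(CPM + 1) over the 16 combinations of class and library with at least 50 cells, among 12117 genes. These points share libraries and depth. Immune points came from the whole lungs only, so that r of a gene largely limited to this class rests mainly on those points. The genes most like the 6 CC chemokines were C5ar1, Nckap1l and Arhgap30 for Ccl6 (r = 0.999 for each), Bcl2a1a, Cd300a and Cyp4f18 for Ccl9 (0.995, 0.994 and 0.994), Fcgr3, Ctss and Cd300c2 for Ccl3 (0.993 for each), Clec4a1, Adgre1 and Cd53 for Ccl4 (0.991, 0.991 and 0.989), Axl, Arsb and Pag1 for Ccl2 (0.957, 0.954 and 0.947) and Rab7b, Emilin2 and Zfp385a for Ccl7 (0.943, 0.937 and 0.935). Many of these are known leukocyte genes. Those most like Cxcl14 were Spire1, Crispld2 and Dtnbp1 (0.926, 0.916 and 0.911) and those most like Cxcl16 Lamp1, Trappc10 and Lipo3 (0.894, 0.894 and 0.892). Cxcl10 and Cx3cl1 stayed under the 20 CPM set for this step.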

How the data were processed

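Lung cells were captured with 10x Genomics 3′ chemistry and, per the labels' processing notes, aligned to mm10 with Cell Ranger 3.1 and handled with Seurat 3.2.2. In the matrix headers the version was 3.1.0 (whole lungs, E13.5) or 3.0.2 (the remaining libraries). The authors deposited raw UMI counts for each library and, for the whole lungs, SoupX-adjusted expected counts in which background RNA had been subtracted. Kept cells had 0.5 to 10% of UMIs from mitochondrial genes and no fewer than 700 genes (SoupX-adjusted values set this filter in whole lungs, counts in sorted ones). Counts were summed per class and library and divided by the class total. Setting aside cells that met more than 1 class rule was the only doublet treatment. Shares given as thinned or at 2000 UMIs were computed with 1 fixed seed, and the other shares came from unthinned counts. The members and gene lists were chosen with earlier results of these data known. Each of the 10 genes was named in every library and class, pathway genes were named where they reached 20 CPM in a class, and the 3 most similar genes were named for members at 20 CPM or more. The values of 1 listed receptor are not reported here. Alternatives tried were other filters, classes, class cuts, units, scalings and added CPM, and thinning to 1000 UMIs. All 18 values followed through thinning to 1000 UMIs moved. The calling step was tested on simulated data. Python 3.11.15, numpy 2.4.6, scipy 1.17.1, pandas 2.3.3 and matplotlib 3.10.9 were used.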

Additional observations from a re-analysis of the deposited data

How the results depend on the processing

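No paired analysis was possible because each group has 1 library, and no replicate could be left out. Log2 ratios were followed for 56 combinations of gene and comparison through 570 alternative values, of which 441 moved by less than counting error and 129 by more. The sign changed in 45 of these, over 22 ratios, and in no ratio that had been called. The number of chemokines called between the immune cells of the whole lungs was 2, and fell to 1 (Cxcl14) with every cell that meets a class rule, with class cuts doubled, with SoupX-adjusted levels and with SoupX-adjusted classes and levels. It fell to 0 without the 5% of cells with the most UMIs, with the mean of per-cell CPM, with ratios centred on the median gene and with 5 CPM added. In mesenchymal cells it went from 0 to 1 with class cuts doubled (Ccl3), with SoupX-adjusted classes and levels (Ccl3) and with no minimum level (Ccl7), and in epithelial cells from 0 to 1 with every cell that meets a class rule (Ccl2) and to 2 with no minimum (Ccl4 and Ccl9). From E13.5 to E15.5 it went from 1 to 2 in mesenchymal cells with no minimum (Cxcl10 and Cxcl14), and in endothelial cells from 0 to 1 with every cell that meets a rule (Ccl2) and to 2 with no minimum (Ccl7 and Cxcl14). In endothelial cells it went from 0 to 1 (Cxcl10) from E15.5 to E18.5 with no minimum, and from 1 to 0 from E18.5 to P8 with 5 CPM added. The cause of these changes was not tested, except that no minimum admits genes of few UMIs and that a larger added CPM pulls low levels together. The log2 ratio of Cxcl14 from E13.5 to E15.5 ranged from -4.05 to -2.58 and that of Cxcl16 from E18.5 to P8 from 1.00 to 1.52. Immune Cxcl14 ranged from 0.81 to 4.34, immune Ccl7 from 0.16 to 1.03 and mesenchymal Ccl7 from -0.63 to 1.16. Leaving out the 1 immune cell with the most UMIs of a gene, chosen after seeing the data, turned the log2 ratio of Ccl6 between C1q and Ear2 cells in the library labelled control from 0.46 to -0.45, and no other such sign. It moved that of Cxcl10 from 1.99 to 3.07 labelled control and from 3.08 to 4.23 labelled null. Endothelial and epithelial values rest on few UMIs of these genes, which limits their precision.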
